A study of Homo sapiens with 10 samples.

Results

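The genes of cholesterol and fatty acid synthesis, with the genes that control them, were followed through the differentiation of H1 human embryonic stem cells to hepatocyte-like cells. The genes are those of a list of pathway members by symbol, with no threshold on a measured value, and 32 of its 33 genes were found by name in the deposited table of 12125 genes. They comprised 7 genes of the mevalonate and isoprenoid steps, 10 of the squalene and sterol steps, 6 of SREBP control and sterol carriage and 9 of fatty acid synthesis. The remaining gene, SC5D, a sterol desaturase, stands in the table under its older name SC5DL with the same gene identifier, and its values are given apart and enter no count.

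Bulk RNA-seq was made from 1 library per time point at 10 time points, daily from day 0 to day 3, every other day from day 5 to day 13, and on day 21, with no replicate. H1 is an established human cell line, and the course is that of this line alone, without an untreated culture kept in parallel. The day 0 cells were undifferentiated cells in mTeSR1 medium, with none of the factors of the differentiation protocol added. The study does not list what mTeSR1 itself contains, so day 0 is not read as free of growth factors or insulin. Days 1, 2 and 3 were cultured with Activin A at 100 ng per ml in RPMI with a B27 supplement that lacks insulin, and are labelled early definitive endoderm at day 1 and definitive endoderm (DE) after it. Days 5 and 7 had FGF4 at 30 ng per ml and BMP2 at 20 ng per ml in RPMI with the complete B27 supplement, insulin included, and are labelled early hepatoblast and hepatoblast. Days 9 and 11, also labelled hepatoblast, had HGF and KGF at 20 ng per ml in that same complete medium. Days 13 and 21 carry the label Oncostatin M (OSM), at 20 ng per ml in hepatocyte culture medium, and are called hepatocyte-like. By the durations of the protocol, however, day 13 closes the HGF and KGF step. Medium, insulin, growth factors and time in culture changed together at these steps and cannot be told apart.

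The values are whole numbers normalised for GC content by the authors, and they are scores rather than read counts. The median was 81 or 82 in all libraries and the maximum was 18734, shared by 10 genes each time. Values of 2164 or more fell into 10 levels of 9 or 10 genes that all libraries share. A gene at the top level thus cannot go higher, and the step from the second level to the top is 2.88-fold. The limit of 10 levels is a setting. The next level (2020 to 2028) again held 9 or 10 genes in each library. Leaving out genes at the 10 levels therefore does not leave out every shared level. The read depth of each library cannot be recovered from such values, and the study's methods give only an average over samples. Differences are given as log2(value + 1) of the later minus the earlier library and come out smaller than the true ratio where values are low. A gene was counted as higher or lower when this difference was at least 1 (2-fold) and the larger value at least 50. With 1 library per day no p-value can be given. The spread between days 9 and 11, which share a medium, was used as a yardstick: the SD of their log2 differences over the 500 genes nearest in level was 0.512 at a value of 50, 0.335 at 100 and 0.260 at 1000. It also contains any change between those days. The values are not scaled to gene length, so levels are compared between days within a gene and never between genes. In bulk samples, fewer cells of a type and less RNA per cell cannot be told apart.

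The labels of days 0, 3 and 21 were checked against marker genes, by sums in which the genes with the largest values weigh most. Between days 0 and 21 the summed value of 7 pluripotency markers went from 12587 to 117, while that of 9 hepatic markers went from 66 to 91003. Most of the latter came from AFP, TTR, APOB and SERPINA1, each at the top of the scale (18734). All 7 were 2-fold lower and all 9 were 2-fold higher, where 26.4% of all genes were lower and 23.9% higher. The sum of 7 DE markers was 28, 22648 and 65 on days 0, 3 and 21. CER1, at 18734, held most of the day 3 sum, and CXCR4, at 58, most of that at day 21. All 7 were 2-fold higher at day 3 than at day 0, where 11.1% of all genes were. Markers of other cells moved as well. Days 0 and 21 had sums of 790 and 41783 for 8 stromal markers, 5 and 2666 for 6 erythroid markers, and 575 and 1202 for the 4 endothelial markers found of 5. Most of the endothelial sum at day 0 was KDR, which had 517 and then 302, while CDH5, TEK and VWF were higher at day 21. Of 6 macrophage markers only PTPRC was found in the table, with 39 and 65 on those days and 0 listed from day 3 to day 13. The sum of 8 proliferation markers was 4058, 730, 2645 and 412 on days 0, 7, 11 and 21.

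Cells build cholesterol from acetyl-CoA in the cytosol. The mevalonate steps make isoprenoid units, these are joined into squalene, squalene is closed into lanosterol, and lanosterol is trimmed to cholesterol. Fatty acid synthesis draws on the same acetyl-CoA, which is carboxylated, assembled into palmitate, and then elongated and desaturated. Most of these enzymes are known targets of the SREBP transcription factors, encoded by SREBF1 and SREBF2, which are held in the endoplasmic reticulum with the escort protein SCAP by the INSIG proteins when sterols are plentiful and are released when sterols are scarce. SREBP-2 is known mainly for the sterol genes and SREBP-1c, in liver and under insulin, for the fatty acid genes. SREBP binds promoters together with NF-Y, a factor that recognises CCAAT.

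Upstream sequence is shown for 3 of the 5 enzymes that were at least 2-fold higher at day 2 than at day 1 (HMGCS1, MVD and LSS), for a sterol enzyme that followed another course (MSMO1), and for SREBF2 itself. RefSeq windows of the GRCh38.p14 build were matched by symbol for 29 of the 33 listed genes, SC5D included, in 40 windows, and the 250 bases before each start were searched on both strands for CCAAT, for the E-box CACGTG and for the sterol response letters TCACNCCAC. CCAAT was present in 25 of the 40 windows (62.5%), against 32% of all 35116 windows. By gene it was found in 5 of 6 genes of the mevalonate steps, 8 of 9 of the sterol steps, 3 of 6 of the control genes and 5 of 8 of the fatty acid genes, together 72.4% of the 29 genes against 37% of all 27305 genes with a window. This background is not limited to the 12125 genes of the expression table, for which no share was computed. The E-box was present in 5 windows (12.5% against 6.34% of all windows). TCACNCCAC was present in 1 window, that of SREBF2 (2.5% against 0.883%). These are matches of letters and not binding sites. The windows printed are chr5:43313413-43313662 (minus strand) for HMGCS1, chr16:88663092-88663341 (minus strand) for MVD, chr21:46228775-46229024 (minus strand) for LSS, chr4:165327419-165327668 (plus strand) for MSMO1 and chr22:41832855-41833104 (plus strand) for SREBF2, each 5′ to 3′ along its gene. For HMGCS1, with several starts in RefSeq, the window that holds CCAAT was taken. Of the enzymes 2-fold higher at day 2, ACAT2 had no window, and ACSS2, which has windows with and without CCAAT, is not printed. Every window printed holds CCAAT, and no listed gene without it is shown. Capitals mark the motif letters, which do not overlap in these windows.
HMGCS1: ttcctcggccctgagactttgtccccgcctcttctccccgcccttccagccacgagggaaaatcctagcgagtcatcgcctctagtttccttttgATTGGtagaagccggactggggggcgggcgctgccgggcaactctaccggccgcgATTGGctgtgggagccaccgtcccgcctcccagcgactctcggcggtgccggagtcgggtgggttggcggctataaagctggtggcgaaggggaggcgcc
MVD: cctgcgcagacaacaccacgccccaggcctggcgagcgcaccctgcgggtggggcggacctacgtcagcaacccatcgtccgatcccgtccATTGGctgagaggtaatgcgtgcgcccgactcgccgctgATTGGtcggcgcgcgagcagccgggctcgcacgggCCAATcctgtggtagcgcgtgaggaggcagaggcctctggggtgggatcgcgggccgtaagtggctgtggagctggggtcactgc
LSS: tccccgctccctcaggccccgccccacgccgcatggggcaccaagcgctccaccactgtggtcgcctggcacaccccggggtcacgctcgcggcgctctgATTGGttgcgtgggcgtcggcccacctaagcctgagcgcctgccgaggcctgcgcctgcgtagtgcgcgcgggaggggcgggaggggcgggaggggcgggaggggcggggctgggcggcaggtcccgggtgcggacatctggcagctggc
MSMO1: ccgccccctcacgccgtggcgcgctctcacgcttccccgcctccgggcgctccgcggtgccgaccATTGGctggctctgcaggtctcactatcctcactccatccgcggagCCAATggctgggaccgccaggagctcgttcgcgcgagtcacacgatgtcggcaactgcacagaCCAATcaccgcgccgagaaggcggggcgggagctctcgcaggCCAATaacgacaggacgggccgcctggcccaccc
SREBF2: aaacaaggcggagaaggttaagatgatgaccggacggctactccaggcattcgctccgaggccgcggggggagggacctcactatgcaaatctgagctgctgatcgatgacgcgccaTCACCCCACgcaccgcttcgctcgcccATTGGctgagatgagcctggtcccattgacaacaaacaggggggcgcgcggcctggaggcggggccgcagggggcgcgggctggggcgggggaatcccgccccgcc

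Across the course the genes of sterol synthesis and of fatty acid synthesis had different mean profiles, and single genes departed from them, as the heat map of all 32 genes shows. The mean of the 7 mevalonate genes, on the log2 scale and relative to day 0, was -0.11, 0.81, 0.75 and -0.48 on days 1, 2, 3 and 5, and it ended at -0.85. HMGCS1, at the top of the shared scale on days 2 and 3, raised this mean. At day 3 its difference was 2.45, and the median of the 7 genes was 0.66. The mean of the 10 sterol genes moved less, with 0.27, -0.09 and 0.02 on days 3, 5 and 21. The mean of the 9 fatty acid genes was below day 0 in every later library and lowest at day 21 (-1.24). Of the 32 genes, 8 had their highest value at day 2 and 4 at day 3, days at which 8.11% and 8.53% of all genes with a value of at least 50 peaked. Ties were counted at the earlier day, and HMGCS1, at 18734 on both days, is thus counted at day 2. A further 9 were highest at day 0, where 16.6% of all genes peaked, and 10 were lowest at day 21, against 28.3% of all genes.

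**Figure D1:**
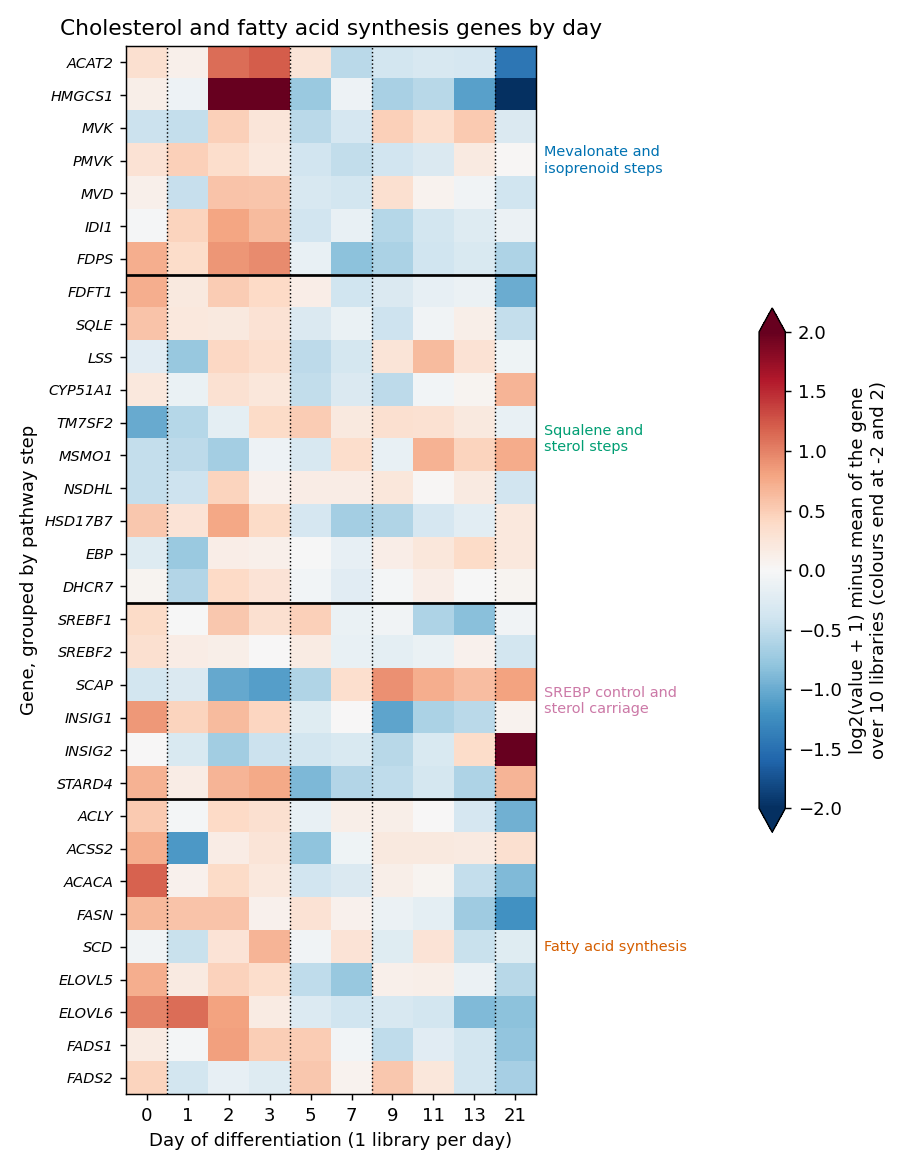
Heat map of the 32 genes (rows, grouped by pathway step) in the 10 libraries (columns, day of differentiation). Colour is log2(value + 1) minus the mean of the gene over the libraries, red above and blue below, and dotted lines part the culture media of the protocol. HMGCS1 and ACAT2 stand out in red at days 2 and 3 and in blue at day 21, most fatty acid genes pass from red at day 0 to blue at day 21, and INSIG2 is most strongly red at day 21.

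**Figure D2:**
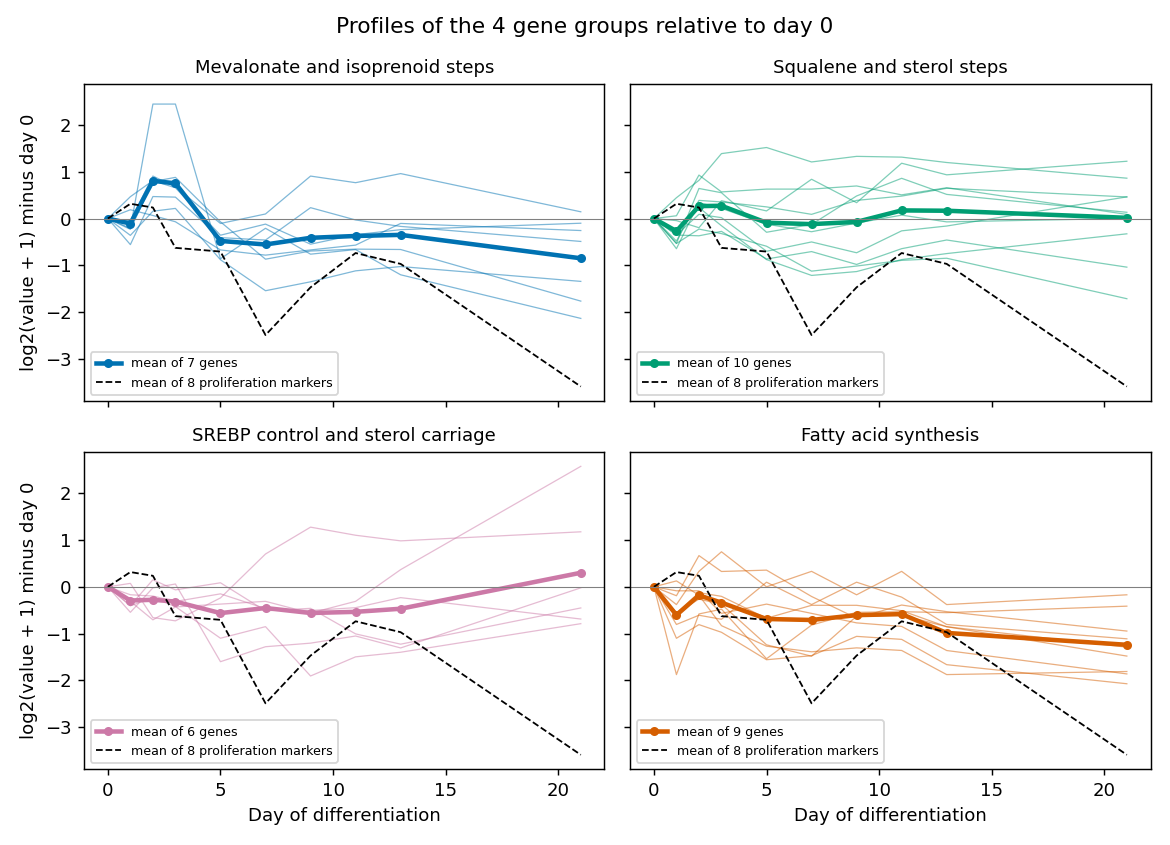
Profiles of the 4 groups: log2(value + 1) minus that of day 0 against day of differentiation. Thin lines are single genes, the thick line is the mean of the group and the dashed line is the mean of 8 proliferation markers. The mevalonate mean peaks at days 2 and 3 (0.81 and 0.75), raised by HMGCS1 at the top of the shared scale. The fatty acid mean ends at -1.24, and the proliferation markers have minima at day 7 (-2.49) and day 21 (-3.59).

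The comparison of days 0 and 1 asks what moved when stem cells were taken from mTeSR1 into Activin A. Most genes of the list were lower after this day, though by small amounts. Of the 30 genes with a larger value of at least 50, 25 were lower at day 1 by any amount (83.3%) and 5 higher, against 47.8% and 50.4% of all genes tested, and the median difference of the 32 genes was -0.35 against 0.00 for the whole table. Only 2 passed the 2-fold limit and 0 were 2-fold higher, where 4.71% of all genes were 2-fold lower and 4.01% higher. Both were enzymes that supply or use cytosolic acetyl-CoA for fatty acids. ACSS2, which makes acetyl-CoA from acetate, had values of 304, 82, 203 and 218 on days 0, 1, 2 and 3, so that day 1 stood below its neighbours. Later it was 104, 172, 208, 210, 207 and 228 on days 5, 7, 9, 11, 13 and 21. Its log2 difference from day 0 to day 1 was -1.88, where the SD of the yardstick at that level was 0.289. Its interval overlaps that of GGT7 on the opposite strand by 715 bases. ACACA, the acetyl-CoA carboxylase of the committed step, had 668, 311, 381, 340, 226, 240, 320, 306, 210 and 158 on the 10 days in order. Day 0 was its highest library, and the next was 381. The 5 genes higher at day 1 were IDI1 (log2 difference 0.47), TM7SF2 (0.45), ELOVL6 (0.13), SCAP (0.07) and NSDHL (0.06). Over the same day all 8 proliferation markers were higher, with a median difference of 0.30.

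From day 1 to day 2, within the same medium, the direction was the opposite. Of the 30 genes tested 24 were higher (80.0%) and 5 lower by any amount, against 45.4% and 52.6% of all genes, and 5 were 2-fold higher and 0 were 2-fold lower, where 4.38% of all genes were 2-fold higher and 2.78% lower. The 5 were HMGCS1, ACAT2 and MVD of the mevalonate steps, LSS of the sterol steps and ACSS2. All 6 mevalonate genes tested were higher, with a group median of 0.96, and 8 of 10 sterol genes, with a median of 0.47. Of the 8 proliferation markers, 2 were higher and 6 lower at this step. Days 2 and 3 then differed little: 0 genes were 2-fold higher or lower, where 2.59% and 1.08% of all genes were, and by any amount 8 were higher and 21 lower, against 46.2% and 51.8%.

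HMGCS1, the cytosolic enzyme that makes HMG-CoA, is ENSG00000112972. The deposited table places it on chromosome 5 (minus strand), bases 43289497 to 43313595, and the build of these intervals is not stated. It had values of 3431 and 2970 on days 0 and 1, stood at the top of the scale (18734) on days 2 and 3, and had 1890 on day 5. It was 2970, 2023, 2166, 1490 and 780 on days 7, 9, 11, 13 and 21, so that day 21 was its lowest library. The log2 difference was 2.66 from day 1 to day 2 and -3.31 from day 3 to day 5. At 18734 it ranked among the first 10 genes of the library, and its distance from the next level there is fixed by the shared scale, so the size of the excursion cannot be read beyond the level it reached.

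The other mevalonate genes tested were also higher on days 2 and 3 than on day 1, and differed more later. ACAT2, which joins acetyl-CoA units ahead of HMGCS1, had 567, 483, 982, 1045, 540, 310, 350, 360, 358 and 166 on the 10 days. Days 2 and 3 stood above all others, and day 21 below them. Its interval overlaps that of TCP1 on the opposite strand by 558 bases, and reads from such an overlap cannot be assigned without strand. MVD, which forms isopentenyl diphosphate, had 336, 228, 466, 462, 253, 244, 395, 329, 299 and 239. FDPS, which makes farnesyl diphosphate, had 824, 642, 919, 958, 447, 282, 322, 379, 404 and 324, with all libraries from day 5 on lower than those before it. IDI1, the isomerase of isopentenyl diphosphate, had 328, 454, 576, 518, 256, 302, 224, 258, 278 and 306. MVK, mevalonate kinase, had a second maximum: 56 and 54 on days 0 and 1, 106 and 90 on days 2 and 3, 52 and 60 on days 5 and 7, 106, 96 and 110 on days 9, 11 and 13, and 62 on day 21. These are values at which the yardstick is wide, with an SD of 0.335 at a value of 100. PMVK, the next kinase, stayed between 24 and 48 and never reached the minimum of 50.

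Days 0 and 3 compare stem cells with DE. Of 30 genes tested, 2 were 2-fold higher at day 3, HMGCS1 and TM7SF2, and 0 lower, where 11.1% of all genes were higher and 9.07% lower. With day 2 in place of day 3, or with genes at shared top levels left out, 1 was 2-fold higher, HMGCS1 in the former case (7.39% of all genes were 2-fold higher and 7.34% lower on day 2 relative to day 0) and TM7SF2 in the latter. The direction parted by group: all 6 mevalonate genes tested and 7 of 10 sterol genes were higher by any amount, whereas 7 of 9 fatty acid genes and 4 of 5 control genes were lower. Over all genes tested 45.4% were higher and 53.3% lower by any amount. The median difference was 0.66 for the mevalonate genes, 0.29 for the sterol genes, -0.37 for the control genes and -0.48 for the fatty acid genes. Among the fatty acid genes ACACA (-0.97), ELOVL6, which elongates palmitate (-0.83), FADS2 (-0.69) and FASN (-0.57) had the lowest differences from day 0, and SCD (0.75) and FADS1 (0.33) were above it.

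Days 3 and 7 compare DE with hepatoblasts, across the change to FGF4, BMP2 and a medium with insulin. Of 30 genes tested, 25 were lower (83.3%) and 4 higher at day 7 by any amount, against 51.4% and 47.5% of all genes. The 2-fold limit was passed by 6 lower genes, HMGCS1, ACAT2, FDPS, HSD17B7, STARD4 and ELOVL5, and by 1 higher gene, SCAP, where 12.8% of all genes were lower and 13.2% higher. With day 5 in place of day 7, SCAP was not 2-fold higher, and with day 2 in place of day 3 MSMO1 joined it, where 15.3% of all genes were higher and 14.2% lower. The median difference of the 32 genes was -0.59 from day 3 to day 5 and -0.03 from day 5 to day 7. Between days 3 and 5, 22 of 30 genes were lower and 8 higher (73.3% lower, against 50.8% of all genes lower and 47.7% higher) and the medians were -0.95 for the mevalonate genes, -0.30 for the sterol genes, -0.47 for the fatty acid genes and 0.11 for the control genes, of which 3 of 5 tested were higher. At that step 5 genes were 2-fold lower, HMGCS1, IDI1, FDPS, STARD4 and ACSS2, and 0 higher, where 7.3% of all genes were lower and 7.76% higher. Between days 5 and 7, 14 genes were higher and 14 lower, against 47.1% and 51.2% of all genes, and 0 passed the 2-fold limit, where 7.7% of all genes were higher and 6.35% lower. The 8 proliferation markers moved in another order. Their median difference was -0.88 from day 2 to day 3, -0.18 from day 3 to day 5 and -1.94 from day 5 to day 7. Their part in the lower values at day 7 was not tested.

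**Figure D3:**
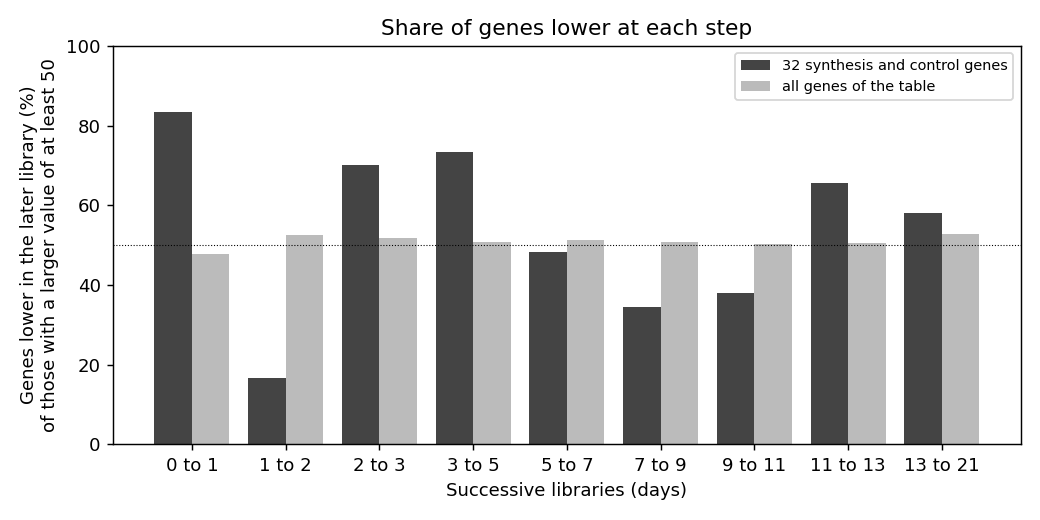
Share of genes lower in the later library at each of the 9 steps between successive libraries, in percent of genes with a larger value of at least 50. Dark bars are the 32 synthesis and control genes and light bars all genes of the table, and the dotted line is 50%. The dark bars leave the light ones most at day 1 (83.3% against 47.8%) and day 2 (16.7% against 52.6%).

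The squalene and sterol steps included genes with opposite courses. FDFT1, squalene synthase, had 1384, 956, 1184, 1107, 918, 634, 684, 744, 768 and 421 on the 10 days, with day 0 highest and day 21 lowest. SQLE, squalene epoxidase, also had its highest value at day 0 (704) and its lowest at day 21 (342). LSS, lanosterol synthase, had 668, 462, 1044, 980, 545, 612, 934, 1214, 956 and 733. It thus had maxima at days 2 and 11 and minima at days 1 and 5. The interval of AP001468.1 lies over 3764 bases of it on the same strand, and the values of that gene were 38 or less. MSMO1, the methylsterol oxidase that acts after lanosterol, had 534, 518, 466, 696, 598, 957, 676, 1214, 1022 and 1250, with its lowest value at day 2, when most sterol genes were high, and its highest at day 21. CYP51A1, the lanosterol demethylase, was between 223 and 395 until day 13 and 512 on day 21. TM7SF2, a sterol reductase, had 104, 142, 184, 274 and 300 on days 0, 1, 2, 3 and 5 and then 242, 263, 260, 240 and 190. The remaining genes are given by their lowest and highest values. DHCR7, the last reductase, lay between 345 (day 1) and 684 (day 2), EBP, a sterol isomerase, between 166 (day 1) and 364 (day 13), NSDHL between 94 (day 0) and 180 (day 2), and HSD17B7 between 33 (day 7) and 92 (day 2). SC5DL had 440, 222, 276, 289, 567, 421, 382, 303, 135 and 317, with its highest value on day 5 and its lowest on day 13. The correlation of each gene with the mean of the other mevalonate and sterol genes over the 10 libraries, a description of points that share their normalisation, ran from 0.825 (MVD) and 0.823 (HMGCS1) to -0.118 (TM7SF2) and -0.492 (MSMO1).

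In fatty acid synthesis, 5 of the 9 genes had their highest value on day 0 and 5 their lowest on day 21. Of all genes with a value of at least 50, 16.6% were highest on day 0 and 28.3% lowest on day 21. FASN, fatty acid synthase, ENSG00000169710 at bases 80036215 to 80056106 of chromosome 17 (minus strand), had 2796, 2636, 2636, 1886, 2164, 1886, 1638, 1554, 1087 and 768. The highest of these lie on shared levels, and the gap between 2796 and 2636 is 1 level. ACLY, which splits citrate into acetyl-CoA, had 1889, 1278, 1734, 1640, 1185, 1436, 1436, 1326, 1045 and 676. ELOVL6 had 392, 428, 346, 220, 162, 149, 158, 152, 106 and 111, so that all libraries from day 5 on were below the first 4. ELOVL5, the elongase of polyunsaturated fatty acids, had 606, 412, 505, 468, 256, 216, 392, 398, 335 and 247. SCD, which makes monounsaturated fatty acids, lay on the shared top levels in all 10 libraries, between 2971 (days 1 and 13) and 6499 (day 3). Its differences are thus counts of levels, and neither end of the course holds its extremes. The desaturases FADS1 and FADS2 lie on opposite strands of chromosome 11 with intervals that overlap by 17536 bases, and FEN1 overlaps FADS2 by 4265 bases on the same strand, so reads there are uncertain. FADS1 was highest at day 2 (1000) and lowest at day 21 (326), and FADS2 was 2168 at days 5 and 9 and 936 at day 21.

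Between days 7 and 13 the differences were below 2-fold and parted by group. Of 29 genes tested, 0 were 2-fold higher or lower, where 9.65% of all genes were higher and 8.21% lower. By any amount 8 of 9 sterol genes tested were higher at day 13 and 7 of 9 fatty acid genes lower, where 46.5% of all genes were higher and 52.4% lower. TM7SF2, the sterol gene that was lower (-0.01), was higher when the libraries were scaled by the median of ratios. Step by step, 18 genes were higher and 10 lower from day 7 to day 9 (47.2% and 50.8% of all genes), and 18 and 11 from day 9 to day 11 (46.8% and 50.2%). From day 9 to day 11, 0 passed the 2-fold limit, where 1.04% of all genes were higher and 0.568% lower. With day 5 in place of day 7, MVK and SCAP were 2-fold higher and SREBF1 lower, 2 genes and 1, where 14% of all genes were higher and 12.2% lower. From day 11 to day 13, 19 of 29 genes were lower and 10 higher, against 50.5% and 47% of all genes, and all 9 fatty acid genes were among the lower ones, with a median of -0.52. At that step 0 genes were 2-fold higher or lower, where 1.46% and 1.17% of all genes were. The proliferation markers were all higher at day 13 than at day 7, by a median of 1.60, while the fatty acid genes had a median of -0.43.

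Days 13 and 21 are both labelled OSM and hepatocyte-like, but the study places the hepatoblast stage at day 13. The step is therefore not read as one within hepatocyte-like cells. Of 9 hepatic markers, 4 were 2-fold higher at day 21 and 0 lower, and ALB had 168 and 4866. By any amount 4 were higher, 3 lower (HNF4A, with 838 and 470, APOA1 and FGB) and 2 equal. The equal ones, AFP and TTR, stood at the top of the scale (18734) in both libraries. At this step 5 of 6 mevalonate genes tested were lower and 5 of 6 control genes higher, by any amount. INSIG2 and STARD4 were 2-fold higher and ACAT2 2-fold lower, 3 of 31 genes tested, where 8.57% of all genes were higher and 9.08% lower. With day 11 in place of day 13, 2 were higher and 3 lower, HMGCS1 and FASN being added, where 10.1% of all genes were higher and 10.8% lower. By any amount 18 of 31 genes were lower and 13 higher, against 52.7% and 46.1% of all genes. The control gene that was lower was SREBF2 (-0.46). All 8 proliferation markers were 2-fold lower, with a median of -2.31, and their part in these differences was not tested. INSIG2, which retains SCAP and the SREBPs in the endoplasmic reticulum, is ENSG00000125629, at bases 118846028 to 118865948 of chromosome 2. It had 30, 24, 18, 22, 23, 24, 20, 24 and 39 up to day 13 and 184 at day 21, a log2 difference of 2.21 between the last libraries. Its other libraries did not exceed 39, and the gene passed the minimum of 50 only through day 21. STARD4, a soluble carrier of cholesterol, had 536, 367, 528 and 559 on days 0 to 3, 176, 220, 232, 258 and 216 from day 5 to day 13, and 528 at day 21. The 5 libraries from day 5 to day 13 thus lay below all others. SREBF1 (96 and 165), INSIG1 (90 and 138) and CYP51A1 (332 and 512) were also higher at day 21, by 0.78, 0.61 and 0.62 on the log2 scale. HMGCS1, FDFT1 and MVK were lower by 0.93, 0.87 and 0.82.

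**Figure D4:**
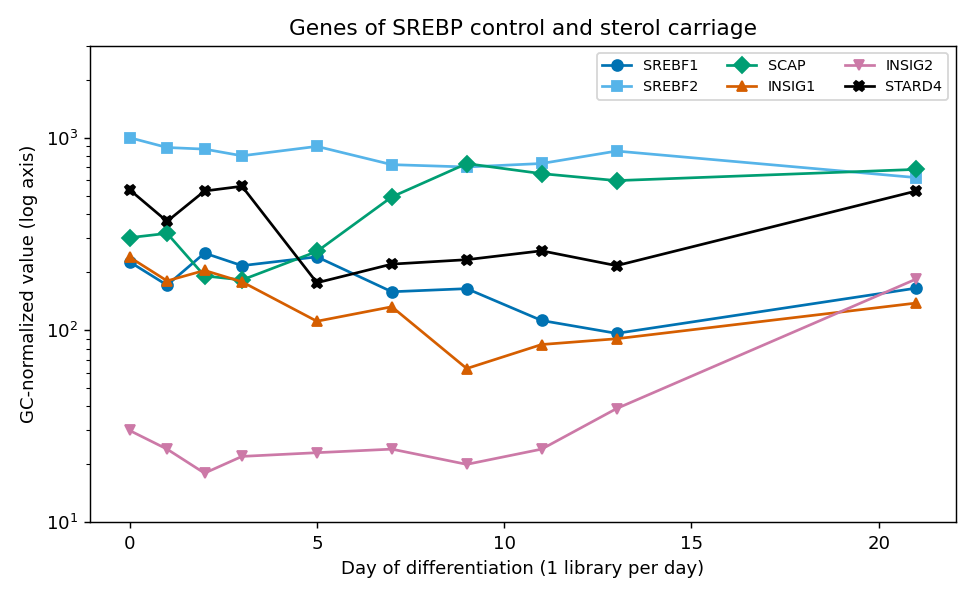
GC-normalized values (log axis) of the 6 genes of SREBP control and sterol carriage against day of differentiation, 1 library per day; levels are not comparable between genes. INSIG2 stays at 39 or below until day 13 and is 184 at day 21, SCAP goes from 182 to 733 between days 3 and 9, and STARD4 is 559, 176 and 528 on days 3, 5 and 21.

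The control genes did not move together over the whole course. SREBF2 had the narrowest range of the 6 as a ratio, between 1000 at day 0 and 620 at day 21. SREBF1 had 226, 171, 251, 216, 240, 158, 164, 112, 96 and 165, with its minimum at day 13. The table does not part its SREBP-1a and SREBP-1c forms, and the interval listed for SREBF1 overlaps that of RAI1 on the opposite strand by 115 bases. SCAP had 302, 318, 191, 182, 256, 492, 733, 650, 598 and 684. It was low on the days when HMGCS1 was at the top of the scale and high from day 7 on. INSIG1, known as an SREBP target that feeds back on the pathway, had 239, 180, 204, 178, 111, 132, 63, 84, 90 and 138. Its value at day 9 was 2-fold below that at day 7 (log2 difference -1.06), the only 2-fold difference of the list at that step, where 2.59% of all genes were lower and 3.23% higher. INSIG1 and INSIG2 thus lay in opposite order at the ends of the course, with INSIG1 lower at day 21 than at day 0 (-0.79) and INSIG2 higher (2.58).

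Over the whole course, from day 0 to day 21, 11 of 31 genes tested were 2-fold lower and 3 higher, where 26.4% of all genes were lower and 23.9% higher. The lower genes were HMGCS1 (-2.14), ACAT2 (-1.77) and FDPS (-1.34) of the mevalonate steps, FDFT1 (-1.72) and SQLE (-1.04) of the sterol steps, and ACACA (-2.07), FASN (-1.86), ELOVL6 (-1.81), ACLY (-1.48), ELOVL5 (-1.29) and FADS2 (-1.11) of fatty acid synthesis. The higher genes were INSIG2, MSMO1 (1.23) and SCAP (1.18). All 9 fatty acid genes were lower by any amount, with a median of -1.29, against 53.1% of all genes lower and 46.3% higher, but scaling the libraries by the median of ratios, which lifts every gene by 0.19 at day 21 relative to day 0, turned SCD (-0.17) to 0.02. The same scaling turned the small differences of IDI1 and STARD4, and with it 9 genes were 2-fold lower and 4 higher. The sterol genes had a median of 0.11, with 7 of 10 higher. All 8 proliferation markers were 2-fold lower over the course, with a median of -3.57, the summed hepatic markers went from 66 to 91003 and the stromal ones from 790 to 41783, with COL3A1 and LUM listed at 0 at day 0. The part of any of these in the lower values of the synthesis genes was not tested.

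At a 4-fold limit few genes of the list remained. From day 0 to day 1 there were 0, where 1.02% of all genes were 4-fold higher and 0.811% lower. HMGCS1 was the 1 gene higher from day 0 to day 3, where 3.94% of all genes were higher and 2.16% lower, and the 1 gene lower from day 3 to day 7, where 5.63% were higher and 4.41% lower. From day 7 to day 13 there were 0 (3.08% and 2.46% of all genes). INSIG2 was the 1 gene higher from day 13 to day 21 (2.28% of all genes higher and 1.62% lower) and from day 0 to day 21, when HMGCS1 and ACACA were 4-fold lower (11.9% of all genes higher and 11.5% lower).

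Other genes of lipid metabolism were counted from lists that leave the 32 genes out. Of 12 further genes of the SREBP pathway and the isoprenoid branches found in the table, day 21 exceeded day 0 by 2-fold in 1 and lay below it in 1. MBTPS2, a protease that cleaves SREBPs, had 24 and 64, and LBR, a sterol reductase of the nuclear envelope, 271 and 88. LBR also had 395, 695, 567 and 170 on days 1, 2, 3 and 5, with days 2 and 3 highest. LPIN1, a phosphatidate phosphatase, had 106, 23, 76 and 110 on days 0 to 3, lowest on day 1. DHDDS (94 and 153 on days 0 and 21) differed by less than 2-fold. LPIN1 is named outside the rule for genes, after a look at its values. Of 13 genes of sterol export, esterification and uptake found, 10 were 2-fold higher on day 21 relative to day 0 and 0 were lower, with a median of 1.81. ABCA1, the cholesterol exporter, had 6, 8, 28, 54, 294, 1088, 1156, 1044, 410 and 1000. SOAT2, which esterifies cholesterol in hepatocytes, was listed at 0 up to day 3, and had 12, 192 and 148 on days 5, 7 and 21. LIPA, the lysosomal acid lipase, had 155, 192 and 936 on days 0, 13 and 21, and SOAT1, the other esterifying enzyme, 6, 72 and 74.

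Of 15 genes of triglyceride synthesis and storage, 9 were 2-fold higher on day 21 relative to day 0 and 1 was lower, with a median of 1.71. DGAT1, which completes triglycerides, had 64, 209 and 430 on days 0, 7 and 21, DGAT2 14, 106 and 166, AGPAT3 34, 315 and 221, and LPIN3 12, 64 and 338. Of 23 genes of fatty acid oxidation, of which 20 were tested, 8 were 2-fold higher and 3 lower, and the median over the 23 was 0.54. ACAA1, a peroxisomal thiolase, had 58, 352 and 781 on days 0, 7 and 21, PPARA, a receptor that drives oxidation genes, 24, 66 and 248, and ACOX2 7, 140 and 92. Of 9 other genes of elongation and desaturation, 7 of them tested, 2 were 2-fold higher and 2 lower. ELOVL2, an elongase of long polyunsaturated fatty acids, had 2, 3, 96, 243 and 11 on days 0, 1, 2, 3 and 5 and 120 at day 21. ELOVL1 had 73 and 226 on days 0 and 21, HSD17B12 452 and 156, and ELOVL4 68 and 26. Of 7 genes that supply NADPH or citrate, 5 were 2-fold lower at day 21 and 0 higher, with a median of -1.56. TKT, transketolase, had 4855 and 253 on days 0 and 21, TALDO1 612 and 116, and PGD 839 and 284. Each of these counts stands beside the 26.4% of all genes lower and 23.9% higher between the same libraries.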

How the data were processed

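The authors deposited 1 table of whole-number scores for 12125 genes in 10 libraries of H1 cells. Reads were aligned by the authors with Bowtie2 2.2.0 and RSEM 1.2.17 and normalised for GC content with EDASeq. The submitters' notes name the builds hg19 and mm10. The study's methods name mm10, a mouse build, for the alignment, although the table holds human gene identifiers, and give no role for hg19. All 10 columns were matched to a day by column name and sample title. The depth of each library is unknown from these scores, and only an average is stated, so counting intervals were not computed. Computations used Python 3.11.15, numpy 2.4.6 and pandas 2.3.3, with plots by matplotlib 3.10.9, and the code was tested on simulated data. All counts were made over the whole table, and 2-fold counts of the listed genes are given beside the share of all genes. Named were all listed genes found, at most 4 genes of each other list with the largest difference between days 0 and 21, and the 10 genes most correlated with the mean profile of the sterol and of the fatty acid genes. Some genes that this rule would name are not reported here. The genes and lists were chosen with earlier results of these data known, although the rule for the listed genes uses symbols only. Alternatives were other pseudocounts (0.1 and 5), scaling by the median of ratios, other minimum values (0 and 200), a 4-fold limit, leaving out genes at the 10 shared top levels, and neighbouring libraries in place of days 3, 7 and 13.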

Additional observations from a re-analysis of the deposited data

How the results depend on the processing

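Each day has 1 library, so no replicate could be left out, and no result has a replicate check. No paired analysis was possible because no 2 libraries belong to the same day. Of 126 alternative values for the 6 comparisons of the design, 110 stayed within the limits set (a count within 1.5 times, a median within the spread of days 9 and 11), and 16, all of them counts of genes, did not. No median of the 32 genes left those limits, but the spread is one of single genes and is wide for a median. From day 0 to day 21 the median was -0.432, and -0.245 after scaling by the median of ratios. From day 7 to day 13 it was 0.209, and 0.039 with day 5 in place of day 7. A 4-fold limit, which by construction calls fewer genes, gave 0 lower at day 1 and 1 higher from day 0 to day 3. From day 3 to day 7 it gave 0 higher and 1 lower, from day 13 to day 21 it gave 1 higher and 0 lower, and from day 0 to day 21 it gave 1 higher and 2 lower. Without genes at shared top levels, which leaves out HMGCS1, 1 was higher from day 0 to day 3. With day 2 in place of day 3, 1 was higher relative to day 0, and 2 were higher at day 7. With day 5 in place of day 7, 0 were higher than at day 3, and at day 13 2 were higher and 1 lower. With a minimum of 200, 1 was higher from day 13 to day 21, since INSIG2 reached 184. With day 11 in place of day 13, 3 were lower at day 21. For the other counts that moved with a change of library, the cause was not tested.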

Other observations

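The genes outside the list whose course over the 10 libraries was most like the mean of the mevalonate and sterol genes were IFT81, UQCRC1, UNC50, FEZ1, RAB8A, TRAPPC1, APOBEC3G, GPSM2, ZNHIT3 and KIF26A, with Pearson correlations from 0.942 to 0.908. These points share their libraries and normalisation. FEZ1 had 39, 22, 137, 191 and 34 on days 0, 1, 2, 3 and 5, and UQCRC1, a subunit of respiratory complex III, had 450, 384, 584, 686 and 282. For the mean of the fatty acid genes they were PKIB, RASL11B, TIMM44, SS18L2, DANCR, QSOX2, FAM124A, COBRA1, RAPGEF6 and MAPKAP1, with correlations from 0.952 to 0.922. PKIB had 215, 123, 182 and 78 on days 0, 1, 2 and 21. Within the fatty acid genes, ACLY and ACACA each had a correlation of 0.925 with the mean of the others, and ACSS2 of 0.040.

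Of the listed genes, 5 start within 1000 bases of the start of a gene on the opposite strand, by the intervals of the table. The share among all genes of the table was not computed, so this count is not read as a trait of the list. ACACA and TADA2A lie 94 bases apart, NSDHL and CETN2 190, IDI1 and WDR37 368, and FADS2 and C11orf10 370, while ACSS2 and GGT7 overlap with starts 714 bases apart. TADA2A stayed between 32 and 55 while ACACA ranged from 158 to 668, WDR37 between 56 and 86 while IDI1 ranged from 224 to 576, and GGT7 between 84 and 137 while ACSS2 ranged from 82 to 304. CETN2 had 60, 128 and 36 on days 0, 3 and 21, against 94, 140 and 100 for NSDHL. C11orf10 had 220, 174 and 85 on days 0, 5 and 21, against 2024, 2168 and 936 for FADS2.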
